A study of Saccharomyces cerevisiae with 9 samples.

Results

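Glycogen, the branched glucose polymer that yeast stores as a carbohydrate reserve, is made and taken apart by products of the 10 genes described here. They were chosen by name from the deposited count table of 6357 rows, with earlier results of these data known. They are GLG1 (YKR058W) and GLG2 (YJL137C), GSY1 (YFR015C) and GSY2 (YLR258W), GLC3 (YEL011W), GPH1 (YPR160W), GDB1 (YPR184W), PGM1 (YKL127W) and PGM2 (YMR105C), and UGP1 (YKL035W). All 10 were present and all 10 passed the filter on low counts. The libraries are RNA-seq of *Saccharomyces cerevisiae* CAT-1, a strain of the Brazilian fuel-ethanol industry, taken at hour 4 of the last of 5 fed-batch molasses fermentations. Cells were reused from one fermentation to the next with an acid treatment in between, in the controls as in the others. The 9 libraries form 3 groups of 3: controls, and fermentations that received an antifoam, labelled Ind_B in one group and Ind_Z in the other. The composition and dose of the agents are not given in the labels, and nothing there says whether the libraries of a group came from separate cultures, so p-values measure the spread between libraries.

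Synthesis starts from glucose 6-phosphate, which phosphoglucomutase turns into glucose 1-phosphate and UDP-glucose pyrophosphorylase into UDP-glucose. Glycogenin primes a chain on itself, glycogen synthase lengthens it and the branching enzyme adds side chains, whereas glycogen phosphorylase and the debranching enzyme release the glucose again. In laboratory yeast these genes are known to be induced as glucose runs low and under stress, in part through the transcription factors Msn2 and Msn4, which bind the stress response element CCCCT. Phosphoglucomutase, glycogenin and glycogen synthase are each encoded by a pair of paralogs, of which PGM2 and GSY2 are known as the major forms of their enzymes.

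The sequences upstream of the members are shown because Msn2 and Msn4 bind through this short element. CCCCT was searched on both strands in the RefSeq R64 genome of the reference strain S288C, not in CAT-1 itself, and overlapping matches were counted. In the window from 250 bases before to 50 bases after the start codon, 5 of the 10 members held a match, against 21.6% of 6001 genes. In the 500 bases before the start codon, a length chosen afterwards, 9 of 10 held at least 1 match and 8 held 2 or more, against 34.1% and 8.13% of 6000 genes. GLG1 had none in either window. Windows were not trimmed at neighbouring genes: all 4 matches of UGP1 and 1 of 2 in GLG2 lay inside a neighbouring coding gene, and 2 of 3 in PGM1 lay inside a tRNA gene. PGM2 held 5 matches, the highest number among the members, all outside annotated genes. They are in capitals below (AGGGG is CCCCT read on the other strand), on the strand of the gene and 5′ to 3′, from base 416 to base 202 before its start codon. Then follow the matches of GSY2, its paralog GSY1 and GDB1, and 1 of the 2 of GPH1, with 10 bases on either side, each with the distance of its first base from the start codon.
PGM2, 416 to 202: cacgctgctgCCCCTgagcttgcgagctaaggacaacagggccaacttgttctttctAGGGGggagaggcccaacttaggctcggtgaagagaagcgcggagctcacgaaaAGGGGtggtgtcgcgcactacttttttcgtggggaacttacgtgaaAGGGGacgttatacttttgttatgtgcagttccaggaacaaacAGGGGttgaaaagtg
GSY2, 377: cactggactgCCCCTggattagcga
GSY2, 196: acgcaattcaCCCCTttctttctta
GSY1, 467: ggaatctttcAGGGGcacaatttcc
GSY1, 332: acaagtaataCCCCTtggaggattt
GPH1, 357: gaaataagtaAGGGGtggataattt
GDB1, 192: acagcagcaaCCCCTtgaaatggcc
These matches describe the reference sequence, and binding was not measured. In the longer window GSY1 and PGM1 carried matches as well as GSY2 and PGM2, whereas in the shorter one GSY1 and PGM1 had 0 and GSY2 and PGM2 had 1 each. Of the remaining members, GPH1, UGP1 and GLG1 had 0 in the shorter window, GLG2 and GDB1 had 1 each and GLC3 had 2. Whether the matches relate to the levels described below was not tested.

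Levels are CPM, a gene's share of the library's counts multiplied up to a fixed common depth, with library sizes scaled by TMM, and total counts ranged from 5900571 to 18245935 per library. The smallest count of any member in any library was 110, for GLG2 in control13. One control library, control13, stood apart from the other controls, and it was the highest of the 3 controls for 8 of the 10 members. Its TMM factor was 0.757, against 1.06 in control1 and 1.08 in control12. Its log2 level exceeded the mean of control1 and control12 by 1.54 for GPH1, 1.10 for PGM2, 1.02 for UGP1 and 0.95 for GSY2, against a median of −0.03 over all genes. In control13 these differences exceeded those of 97.9%, 94.5%, 93.1% and 92.0% of all genes, in that order. GLG2 was lower there, by a log2 difference of −0.26, and GLG1 differed by 0.08. For this reason the counts of called members, and the differences of the members between Ind_B and control, are given with and without control13. In bulk RNA, fewer cells that express a gene and less of its RNA per cell cannot be told apart.

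Per kilobase of coding length, which allows genes to be compared with each other, UGP1 was the most abundant member at 585 ± 259 CPM per kb in control (SD, n = 3), and over all 9 libraries it was above 97.3% of 5662 protein-coding genes. PGM2 followed at 333 ± 160, GPH1 at 216 ± 146, GSY2 at 146 ± 60.3, GLC3 at 104 ± 32.1 and GDB1 at 89.8 ± 19.3 CPM per kb. GSY1 was at 46 ± 7.76, and GLG1, PGM1 and GLG2 at 26.7 ± 1.9, 26.3 ± 3.37 and 21.9 ± 2.79 CPM per kb, so the glycogenin genes and PGM1 were the least abundant members. The ranges of neighbours over the control libraries overlapped, except that GSY1 overlapped neither GDB1 above it nor GLG1 below it. Within each control library, however, the order from UGP1 down to GSY1 was the same, whereas GLG1, PGM1 and GLG2 changed places. In Ind_B the order changed in the middle and at the end. GPH1, at 59.8 ± 10.8 CPM per kb, came after GLC3 at 68.5 ± 7.03 and GSY2 at 64.2 ± 0.209, and these 3 means differed by no more than the spread of their libraries. PGM1, GLG2 and GLG1 came last, at 25.7, 25.5 and 21.8 CPM per kb. In Ind_Z GPH1 followed PGM2 as in control, at 129 ± 25.4, with GSY2 at 124 ± 17.9 CPM per kb. There GDB1, at 93.2, came before GLC3 at 75.2, and PGM1, at 28.4, before GLG1 at 22.4 CPM per kb.

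**Figure D1:**
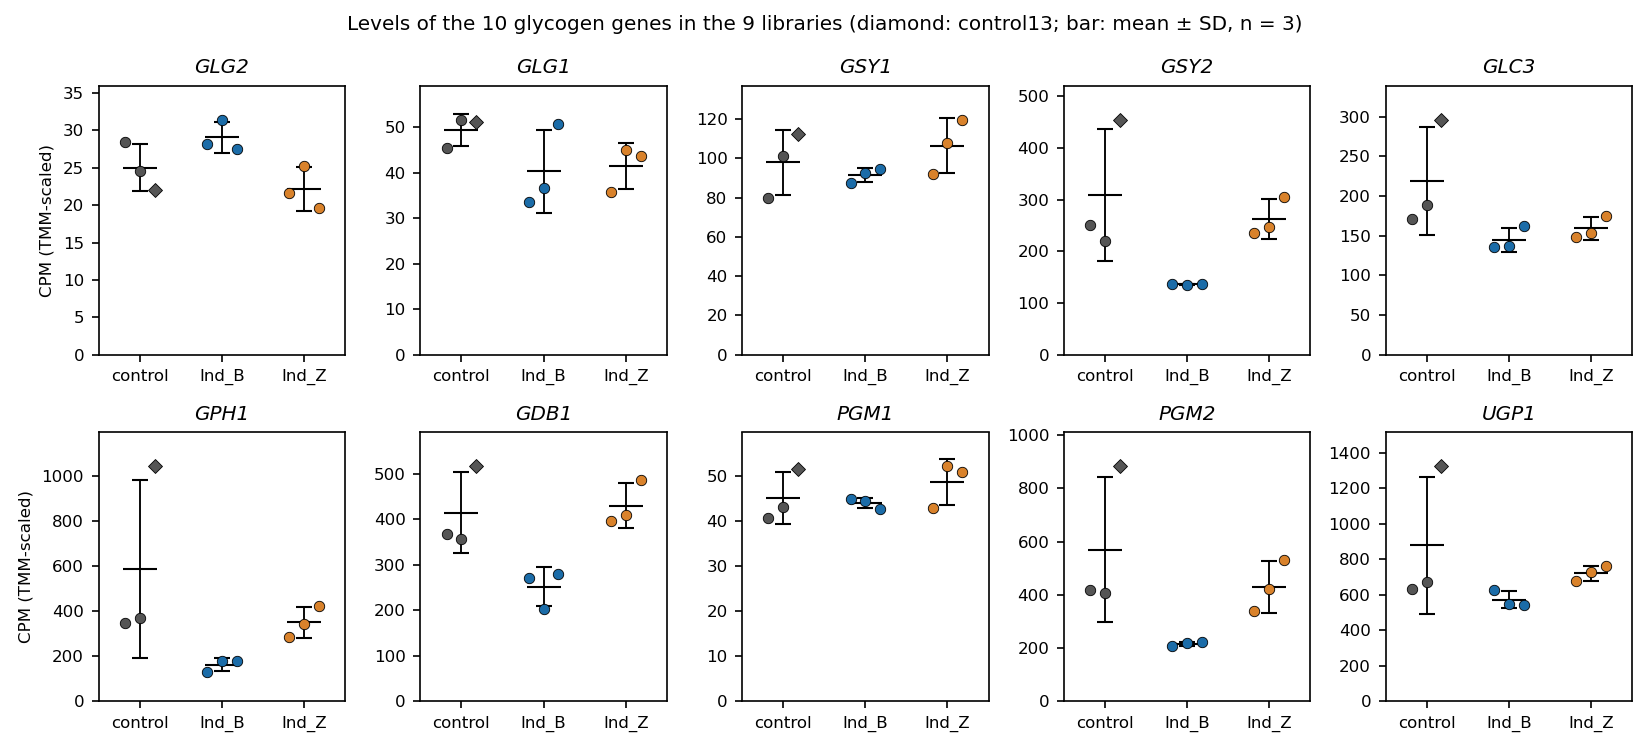
Level of each glycogen gene (y axis, CPM scaled by TMM, from 0) in the control, Ind_B and Ind_Z libraries (x axis, 3 points each), with the mean and SD as bars and control13 as a diamond. The Ind_B points of GSY2, GLC3, GPH1, GDB1, PGM2 and UGP1 lie below all control points, while those of GLG2, GLG1, GSY1 and PGM1 overlap the controls.

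The genes of chain initiation showed small differences between groups. GLG1, encoding the larger of the 2 glycogenins, was at 45.4, 51.7 and 51.2 CPM in control1, control12 and control13, at 33.6, 36.6 and 50.7 in Ind_B replicates 1, 2 and 3, and at 35.7, 45.1 and 43.7 in Ind_Z replicates 1, 2 and 3. The Ind_Z libraries were all below the controls, the nearest values being 45.1 and 45.4 CPM, and Ind_B replicate 3 lay among the controls. Its log2 differences from control were −0.29 ± 0.17 (SE) in Ind_B and −0.26 ± 0.17 in Ind_Z, with adjusted p-values of 0.374 and 0.437 in edgeR's test, and without control13 they were −0.27 ± 0.18 and −0.23 ± 0.18. GLG2, the other glycogenin gene, was at 28.4, 24.6 and 22.1 CPM in the controls, 28.2, 31.5 and 27.6 in Ind_B and 21.6, 25.3 and 19.6 in Ind_Z. With all libraries it was the 1 member with a higher mean in Ind_B than in control (log2 difference 0.20 ± 0.14, and 0.12 ± 0.13 without control13), with overlapping groups. The 3 Ind_Z libraries were all below the 3 Ind_B libraries (−0.40 ± 0.14, adjusted p = 0.133 by edgeR, whose quasi-likelihood p-values were adjusted over all genes tested).

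Of the synthase genes, GSY2 was lower in every Ind_B library than in any other, while the groups of GSY1 overlapped. GSY2 was at 251, 220 and 455 CPM in control1, control12 and control13, and at 136.2, 135.4 and 136.0 in the Ind_B replicates. In Ind_Z it was at 235, 246 and 306 CPM. All Ind_B values were thus below every control and every Ind_Z value, and the Ind_Z values lay among the controls. The difference between Ind_B and control was −1.18 ± 0.25 on the log2 scale, a fold of 0.441, with an adjusted p = 0.0789 in edgeR's test. Between Ind_Z and Ind_B it was 0.95 ± 0.24, with an adjusted p = 0.0767. GSY1 was at 80.1, 101 and 113 CPM in the controls, 87.6, 92.4 and 94.6 in Ind_B and 91.8, 108 and 120 in Ind_Z. Its groups overlapped, and its difference between Ind_B and control was −0.09 ± 0.15, with a 95% interval of −0.45 to 0.26, and 0.0085 ± 0.14 without control13.

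GLC3, encoding the branching enzyme, had a lower mean than control in both antifoam groups. It was at 171, 189 and 297 CPM in the controls, 136, 137 and 162 in Ind_B and 148, 154 and 175 in Ind_Z. All Ind_B values were below the controls, and 1 Ind_Z value was above the lowest control. The log2 differences from control were −0.59 ± 0.20 for Ind_B (adjusted p = 0.178) and −0.46 ± 0.20 for Ind_Z (adjusted p = 0.243, both in edgeR's test), and without control13 they were −0.32 ± 0.12 and −0.17 ± 0.12. Ind_Z and Ind_B differed by 0.14 ± 0.20.

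Of the breakdown genes, GPH1, encoding glycogen phosphorylase, showed the largest difference of the 10 members between Ind_B and control. It was at 345, 371 and 1042 CPM in control1, control12 and control13, and at 128, 178 and 180 in Ind_B. In Ind_Z it was at 283, 342 and 420 CPM. All Ind_B values were below all others, Ind_Z overlapped the controls, and control13 was far above the rest. The log2 difference between Ind_B and control was −1.85 ± 0.39, a fold of 0.277 (adjusted p = 0.0817 in edgeR's test), and −1.15 ± 0.18 without control13. GDB1, encoding the debranching enzyme, was at 368, 357 and 517 CPM in the controls, 272, 202 and 280 in Ind_B and 396, 409 and 486 in Ind_Z. Again all Ind_B values were below all others. Its log2 differences from control were −0.72 ± 0.19 in Ind_B (adjusted p = 0.122 in edgeR's test) and 0.06 ± 0.19 in Ind_Z, and without control13 they were −0.53 ± 0.16 and 0.25 ± 0.16.

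Among the genes that supply UDP-glucose, PGM2 resembled GSY2 and GPH1, the groups of PGM1 overlapped, and UGP1 differed less. PGM2 was at 417, 407 and 884 CPM in control1, control12 and control13, at 207, 218 and 222 in Ind_B and at 337, 422 and 532 in Ind_Z. Every Ind_B library was below every other library. Its difference between Ind_B and control was −1.40 ± 0.29, a fold of 0.379 (adjusted p = 0.0817 in edgeR's test). PGM1, encoding the minor phosphoglucomutase, was at 40.6, 43.1 and 51.6 CPM in the controls, 44.9, 44.4 and 42.7 in Ind_B and 42.9, 52.1 and 50.9 in Ind_Z. Its groups overlapped in all 3 comparisons, and its difference between Ind_B and control was −0.03 ± 0.12 (95% interval −0.33 to 0.28), and 0.065 ± 0.11 without control13. UGP1, encoding UDP-glucose pyrophosphorylase, was at 633, 674 and 1325 CPM in the controls, 625, 546 and 540 in Ind_B and 677, 726 and 761 in Ind_Z. Ind_B was below the controls without overlap, the nearest values being 625 and 633 CPM. Its log2 difference was −0.62 ± 0.26, and −0.21 ± 0.12 without control13.

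**Figure D2:**
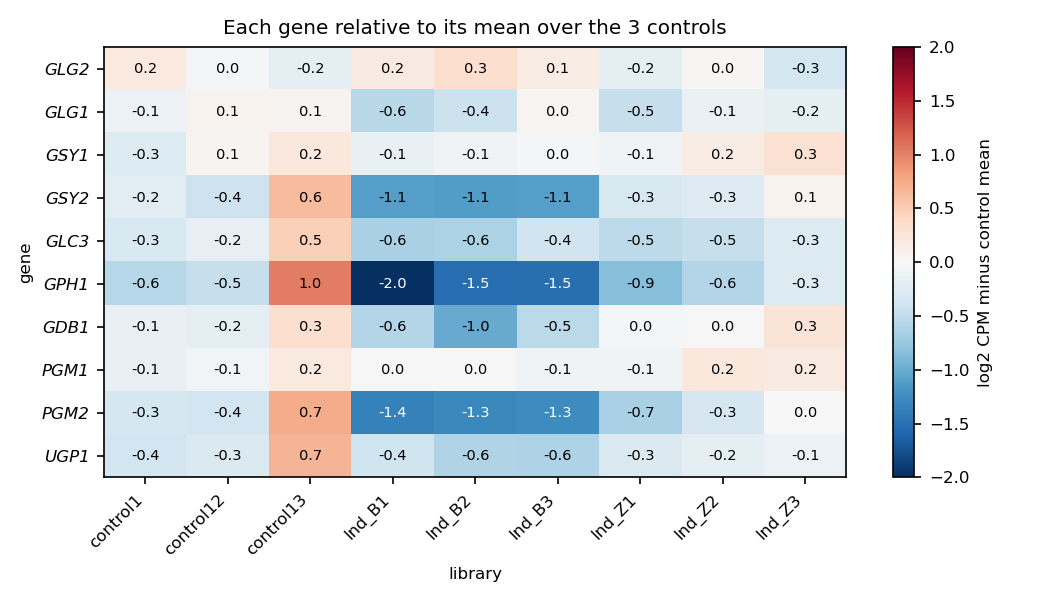
Log2 CPM of each glycogen gene (rows) in each library (columns) minus the gene's mean over the 3 controls, as colour and number. The Ind_B columns are lowest for GPH1, PGM2 and GSY2, and control13 is higher than the other controls for the same genes.

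Counted over the family, Ind_B against control gave 0 of 10 members past edgeR's quasi-likelihood test at an adjusted p under 0.05, where 0.147% of all 6137 genes tested were called (0.0326% higher and 0.114% lower). At an unadjusted p under 0.05 there were 6 of 10, against 19.1% of all genes. DESeq2 called 4 (GSY2, GPH1, GDB1 and PGM2), against 4.93% of all genes, and limma-voom with sample quality weights called 3 (the same without GDB1), against 3.49%. In 6 of 10 members the groups did not overlap and Ind_B was lower, against 9.21% of all genes. The median log2 difference of the members was −0.61, against 0.01 over all genes. Without control13, edgeR called 3 members lower: GSY2 fell by 0.80 ± 0.13 (adjusted p = 0.0297), GPH1 fell by 1.15 ± 0.18 (adjusted p = 0.0297) and PGM2 fell by 0.94 ± 0.16 (adjusted p = 0.0348). In that fit 0.728% of 6178 genes were called, 0.146% higher and 0.583% lower, and the median of the members was −0.29. The same 3 were called without control12, where 5.40% of all genes were called.

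For Ind_Z against control, 0 of 10 members passed edgeR's test and 1 had an unadjusted p under 0.05, against 19.3% of all genes. DESeq2 called 0, against 7.30%, and limma-voom called 1, GLG2 at −0.30 ± 0.11, against 34.7%. None of these counts exceeded the share of all genes, and 10 members are too few to read them as a shortfall. Over all genes edgeR called 2.13%, made up of 1.73% higher and 0.407% lower. Only GLG1 had groups that did not overlap, lower in Ind_Z, against 12.6% of all genes. Without control13 edgeR's count was still 0 of 10, with 0 at an unadjusted p under 0.05 (34.7% of all genes), while 19.6% of all genes were called (13.1% higher and 6.54% lower). GPH1 then differed from control by −0.03 ± 0.19, PGM2 by 0.07 ± 0.17 and GSY2 by 0.16 ± 0.13. With all libraries these differences were −0.75 ± 0.38, −0.40 ± 0.29 and −0.23 ± 0.24, so those of PGM2 and GSY2 changed sign with the 1 library, and none was called either way. The comparisons of Ind_B and of Ind_Z with control share the control libraries.

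The direct comparison of Ind_Z with Ind_B, in which the controls enter through the shared filter, scaling and estimate of spread, gave 0 of 10 members past edgeR's test, with 0.424% of all genes called (0.358% higher and 0.0652% lower). At an unadjusted p under 0.05 there were 5 members, against 25.5% of all genes, and the groups did not overlap for 5 members higher and 1 lower in Ind_Z, against 21.4% and 21.5% of all genes. DESeq2 called 4 members, against 10.3% of all genes, and limma-voom called 5, against 24.5%. A fit on the 6 antifoam libraries alone called 4 members, all higher in Ind_Z, where 20.5% of 6106 genes were called, 13.1% higher and 7.40% lower. GPH1 rose by 1.12 ± 0.18 (adjusted p = 0.00333), PGM2 rose by 1.01 ± 0.16 (adjusted p = 0.00345), GSY2 rose by 0.96 ± 0.12 (adjusted p = 0.00113) and GDB1 rose by 0.78 ± 0.15 (adjusted p = 0.00727, all in edgeR's test). With all 9 libraries the differences themselves were nearly the same, 1.10, 1.00, 0.95 and 0.77. Their SEs were larger, 0.39, 0.29, 0.24 and 0.19. Without control13 alone, edgeR called 6 members: these 4, UGP1 higher (0.35 ± 0.11, adjusted p = 0.0416) and GLG2 lower (−0.39 ± 0.12, adjusted p = 0.0472). In that fit 23.5% of all genes were called, 14.2% higher and 9.31% lower.

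**Figure D3:**
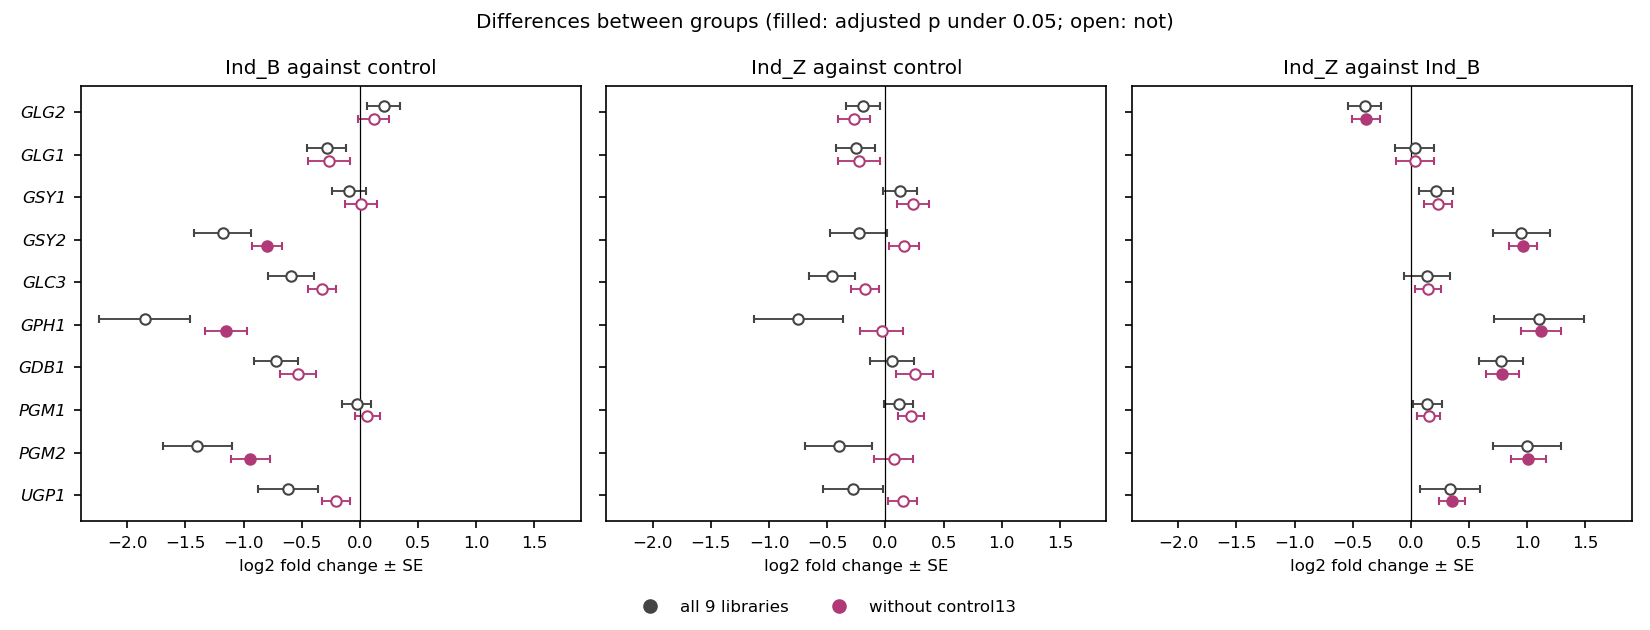
Log2 fold change ± SE (x axis) of each glycogen gene (y axis) in the 3 comparisons, with all 9 libraries and without control13. Filled points have an adjusted p under 0.05 in edgeR's test: 0 with all libraries, and without control13 GSY2, GPH1 and PGM2 for Ind_B against control and 6 genes for Ind_Z against Ind_B.

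The test for any difference among the 3 groups, which favours no comparison, called 0 of 10 members with edgeR, against 2.00% of all genes. The unadjusted p was under 0.05 for 5 members, against 26.7% of all genes, the lowest being that of GSY2 (adjusted p = 0.0633). DESeq2 called 4 members, against 15.2% of all genes, and limma-voom 5, against 37.4%. Without control13 edgeR called GSY2, GPH1, PGM2 and GDB1, against 23.7% of all genes.

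Whether the paralogs of a pair differed in their response was tested on the ratio of their counts within each library, which does not depend on depth or scaling. The coding sequences of GSY1 and GSY2 match at 73.5% of bases and those of PGM1 and PGM2 at 73%, with longest identical runs of 20 and 23 bases. For 5 ratios an exact permutation test over all 1680 assignments of the 9 libraries to the 3 groups was used, whose smallest possible p is 0.00357, with adjustment over the 5.

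Per kilobase, the ratio of GSY2 to GSY1 was 3.15, 2.18 and 4.06 in control1, control12 and control13. It was 1.56, 1.47 and 1.44 in Ind_B and 2.57, 2.29 and 2.56 in Ind_Z. All 3 Ind_B libraries were below all others. The 3 groups differed (exact permutation p = 0.0143, adjusted p = 0.0238), and the mean log2 count ratio was 1.59 ± 0.45 in control, 0.57 ± 0.06 in Ind_B and 1.30 ± 0.10 in Ind_Z (SD, n = 3). The difference between Ind_B and control was −1.02. Without control13 it was −0.81 and the exact test gave an adjusted p = 0.0536.

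The ratio of PGM2 to PGM1 per kilobase was 10.3, 9.45 and 17.1 in the controls, 4.61, 4.92 and 5.20 in Ind_B and 7.88, 8.10 and 10.5 in Ind_Z. Ind_B was again below all others without overlap (exact permutation p = 0.0107, adjusted p = 0.0238). The mean log2 ratio in Ind_B differed from control by −1.27, and by −1.01 without control13, where the exact test gave an adjusted p = 0.0357. Each pairwise exact test of 3 libraries against 3 gave p = 0.1 for Ind_B against either group in both pairs, the smallest value that design allows. For glycogenin, whose paralogs match at 67.2% over less of their length, the ratio of GLG2 to GLG1 overlapped between all groups (exact permutation p = 0.157).

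The ratios between breakdown and synthesis genes were less uniform. GDB1 relative to GLC3, the debranching to the branching enzyme, was 0.986, 0.865 and 0.799 per kilobase in control1, control12 and control13, and 0.918, 0.679 and 0.794 in Ind_B. In Ind_Z it was 1.22, 1.22 and 1.27. Ind_Z was thus above both other groups without overlap, and the 3 groups differed (exact permutation p = 0.0143, adjusted p = 0.0238, and 0.0357 without control13). The mean log2 ratio in Ind_Z exceeded control by 0.49 and Ind_B by 0.65. Neither gene was called for Ind_Z against control. GPH1 relative to GSY2 was 1.08, 1.32 and 1.79 in the controls, 0.737, 1.03 and 1.03 in Ind_B and 0.940, 1.09 and 1.08 in Ind_Z. Ind_B was below control without overlap, but the 3 groups did not pass (exact permutation p = 0.0571, adjusted p = 0.0714; adjusted p = 0.0313 without control1).

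**Figure D4:**
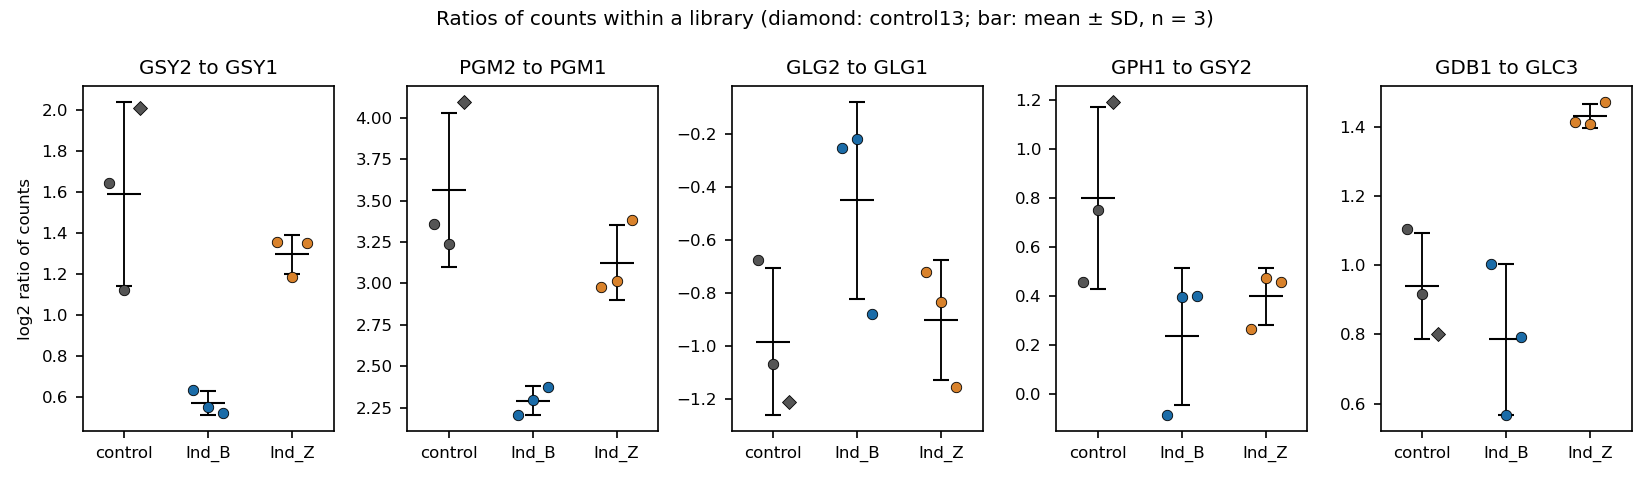
Log2 ratio of the counts of 2 glycogen genes in 1 library (y axis, a separate scale in each panel) for the control, Ind_B and Ind_Z libraries (x axis), with mean and SD as bars and control13 as a diamond. GSY2 to GSY1 and PGM2 to PGM1 are lowest in all Ind_B libraries, and GDB1 to GLC3 is highest in all Ind_Z libraries.

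The members followed a common profile over the 9 libraries to different degrees. As a description, PGM2, GPH1 and GSY2 correlated with the mean of the other 9 members at r of 0.99, 0.98 and 0.95 in log2 CPM, GSY1 and PGM1 at 0.62 and 0.58, and GLG2 ran the other way at −0.71. These libraries fall into groups and include control13, and without control13 (8 libraries) the values were 0.98, 0.95, 0.93, 0.53, 0.38 and −0.76. Among 5639 other genes whose mean count reached 50, the 5 most like the members' mean profile were KGD2, a subunit gene of 2-oxoglutarate dehydrogenase (r = 0.97), TSA2, a peroxiredoxin gene (0.97), SSU1, the sulfite exporter gene (0.96), HPF1, a cell wall mannoprotein gene (0.96), and PEX11, a peroxisome proliferation gene (0.96). Without control13 they were KGD2 (0.94), TSA1 (0.93), GCY1 (0.92), HPF1 (0.92) and OPI3 (0.92), so KGD2 and HPF1 were named in both.

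The other genes of the pathway were taken from 5 lists of 50 genes in all. With edgeR, 0 of 50 were called in each comparison. At an unadjusted p under 0.05 there were 9 of 50 for Ind_B against control, 7 for Ind_Z against control and 15 for Ind_Z against Ind_B, against 19.1%, 19.3% and 25.5% of all genes. DESeq2 called 2, 3 and 5 in that order, against 4.93%, 7.30% and 10.3%, and limma-voom called 0, 13 and 12, against 3.49%, 34.7% and 24.5%. Pooled over the 5 lists these shares were near or below those of all genes, so the pooled counts are not a result about the lists. Single lists differed in the unadjusted counts. For Ind_B against control they were 1 of 12, 0 of 17, 4 of 7, 3 of 6 and 1 of 8. For Ind_Z against control they were 1, 3, 1, 1 and 1, and for Ind_Z against Ind_B 4, 2, 4, 2 and 3. Trehalose (4 of 7) and glucose phosphorylation (3 of 6) thus lay above the 19.1% of all genes for Ind_B against control. Without control13, edgeR called 0 genes of any list for Ind_B against control, where 0.728% of all genes were called. For Ind_Z against control it called 2 of 12, 1 of 17, 0 of 7, 3 of 6 and 0 of 8, against 19.6%. For Ind_Z against Ind_B it called 2 of 12, 1 of 17, 5 of 7, 3 of 6 and 2 of 8, against 23.5%. The lists stand here in the order used below.

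A list of 12 genes held regulators of glycogen synthase and phosphorylase and also SGA1, a glucoamylase gene. In it GAC1, which encodes a subunit that brings the phosphatase Glc7 to glycogen synthase, had the lowest p in 2 of the 3 comparisons. It was at 106, 105 and 150 CPM in the controls, 76.8, 80.2 and 94.4 in Ind_B and 124, 147 and 146 in Ind_Z, so that Ind_B was below all others. Its log2 differences were −0.52 ± 0.16 for Ind_B against control (adjusted p = 0.152) and 0.73 ± 0.16 for Ind_Z against Ind_B (adjusted p = 0.0713, both in edgeR's test). Without control13 the first was −0.34 ± 0.12 and the second was called (0.74 ± 0.11, adjusted p = 0.00128), as was a higher level in Ind_Z than in control (0.40 ± 0.12, adjusted p = 0.0441). PIG1, encoding a related putative targeting subunit, was lower in Ind_Z, at 27.3, 19.5 and 19.6 CPM against 48.1, 41.3 and 27.7 in the controls (−0.83 ± 0.21, adjusted p = 0.0747 in edgeR's test). Without control13 it was called lower in Ind_Z against control (−0.99 ± 0.16, adjusted p = 0.00399) and against Ind_B (−0.83 ± 0.15, adjusted p = 0.00392). The median of the list was 0.06, 0.12 and −0.02 for Ind_B against control, Ind_Z against control and Ind_Z against Ind_B, and −0.04, 0.02 and −0.0070 without control13.

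Of 17 upstream signalling genes, TPK3, a catalytic subunit gene of protein kinase A, had the lowest p for Ind_B against control (0.21 ± 0.12, and 0.13 ± 0.11 without control13) and for Ind_Z against Ind_B (−0.36 ± 0.12). PSK1, a kinase gene that acts on Ugp1 and glycogen synthase, had the lowest for Ind_Z against control (−0.35 ± 0.12). The medians of the list in the 3 comparisons were 0.10, −0.06 and −0.09, and 0.02, −0.07 and −0.08 without control13. Without control13 PSK1 was called for Ind_Z against control (−0.40 ± 0.11, adjusted p = 0.0310 in edgeR's test) and TPK3 for Ind_Z against Ind_B (−0.34 ± 0.10, adjusted p = 0.0359). The transcripts of MSN2 and MSN4, singled out after their values were seen, differed between Ind_B and control by 0.05 ± 0.13 and −0.14 ± 0.18, and between Ind_Z and control by −0.04 ± 0.13 and −0.46 ± 0.18. Without control13 these were 0.0044 ± 0.13 and −0.25 ± 0.18, and −0.07 ± 0.13 and −0.56 ± 0.18.

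Trehalose, the other storage carbohydrate, is also built from UDP-glucose. Of its 7 genes, TPS3, a regulatory subunit gene of the synthase complex, had the lowest p for Ind_B against control (−0.53 ± 0.15, adjusted p = 0.139) and for Ind_Z against control (−0.44 ± 0.15, adjusted p = 0.163). Without control13 these were −0.37 ± 0.11 and −0.26 ± 0.11. TPS2, the phosphatase gene, had the lowest for Ind_Z against Ind_B (0.58 ± 0.15, adjusted p = 0.0767, all in edgeR's test). Without control13, 5 of the 7 genes were called for Ind_Z against Ind_B, where 23.5% of all genes were called, 14.2% higher and 9.31% lower. The synthesis genes TPS1 (0.49 ± 0.12), TPS2 (0.60 ± 0.11) and TSL1 (0.81 ± 0.20) were called higher in Ind_Z than in Ind_B. The trehalase genes NTH2 (−0.41 ± 0.10) and ATH1 (−0.38 ± 0.11) were called lower there. NTH1, the other trehalase gene of the list and the most abundant of them, went the other way and was not called (0.26 ± 0.11). The medians of the 7 genes with all libraries were −0.35, −0.11 and 0.25. Without control13 they were −0.22, 0.09 and 0.26, so the second changed sign.

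Of 6 genes of glucose phosphorylation and glucose 6-phosphate use, HXK1, a hexokinase gene, was at 389, 461 and 1034 CPM in the controls, 246, 290 and 289 in Ind_B and 772, 901 and 1235 in Ind_Z. Ind_B was below all other libraries, with differences of −1.19 ± 0.34 from control (adjusted p = 0.139) and 1.82 ± 0.35 between Ind_Z and Ind_B (adjusted p = 0.0531, both in edgeR's test). Without control13 the first was −0.64 ± 0.19. HXK2 had the lowest p for Ind_Z against control (1.05 ± 0.33). Without control13, HXK1, HXK2 and the glucokinase gene GLK1 were called higher in Ind_Z than in control (1.20 ± 0.20, 1.65 ± 0.16 and 0.46 ± 0.14) and than in Ind_B (1.83 ± 0.18, 1.32 ± 0.14 and 0.56 ± 0.13). These were 3 of 6 genes in each comparison, where 19.6% and 23.5% of all genes were called. The medians of the 6 genes with all libraries were −0.77, −0.08 and 0.61. Without control13 they were −0.21, 0.37 and 0.62, so the first was much smaller and the second changed sign. The last list held 8 genes named as other users of UDP-glucose, a use not established for KRE6 and SKN1. In it FKS1, a glucan synthase gene, had the lowest p for Ind_B against control (−0.65 ± 0.28, and −0.27 ± 0.15 without control13). GAL7 of galactose metabolism had the lowest for Ind_Z against control (−0.81 ± 0.33, and −0.90 ± 0.35 without control13) and against Ind_B (−0.89 ± 0.33). Without control13, FKS1 was called higher (0.71 ± 0.14) and ATG26, a sterol glucosyltransferase gene, lower (−0.30 ± 0.09) in Ind_Z than in Ind_B. The medians of this last list were 0.12, 0.0027 and −0.11, and 0.03, 0.04 and −0.10 without control13.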

How the data were processed

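RNA was extracted with TRIzol and libraries were made with a TruSeq kit with enzymatic depletion of ribosomal RNA, per the labels' protocols. Of the programs behind the counts, HTSeq 0.6.0 and TopHat2 2.0.9 are known by name, per the submitters' processing notes. The authors deposited raw read counts per feature. The sources used here do not name the build, the annotation or the use of strand, so reads of antisense partners cannot be told apart. Of the 9 columns, 7 matched a sample title, and control12 and control13 were taken as control libraries with no replicate number. Total counts were 5900571 to 18245935. Names, coding lengths and upstream sequences came from RefSeq assembly R64, which named 5783 of 6357 rows by locus tag. BLAST+ 2.17.0 found no member with a copy at 95% identity over 50% of its length, and no annotated gene overlaps one.

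edgeR 4.0.16 (R 4.3.3) kept genes by filterByExpr, scaled by TMM and fitted 1 mean per group to all 9 libraries. Its quasi-likelihood test was adjusted by Benjamini-Hochberg over all genes tested, and SEs were taken from the F statistic. Log2 CPM used a prior count of 2, and count ratios a pseudocount of 0.5. The scripts were tested on simulated data. Alternatives were DESeq2 1.42.0, limma-voom 3.58.1 with quality weights, other scalings and filters, fewer rows or libraries, and a replicate block. All 10 members are named. From each list every called gene up to 4 or, if none was called, the gene of lowest p was named, and genes named without control13 beyond this were chosen after their values were seen. The members and lists were chosen with earlier results of these data known.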

Additional observations from a re-analysis of the deposited data

How the results depend on the processing

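Under RLE size factors, with every row kept, with a minimum mean count of 50, and leaving out mitochondrially encoded and the 20 most abundant genes, the 30 fold changes of the members all kept their direction and their side of the threshold. The number of members called was tool-dependent. Against 0 in edgeR, DESeq2 called 4 for Ind_B against control, 4 for Ind_Z against Ind_B and 4 for any difference, and limma-voom, which gave control13 a weight of 0.144, called 3, 5 and 5, with 1 for Ind_Z against control. Fitting only the 6 libraries of a comparison called 4 for Ind_Z against Ind_B. Leaving out 1 library gave 0 to 3 for Ind_B against control, 0 to 0 for Ind_Z against control, 0 to 6 for Ind_Z against Ind_B and 0 to 4 for any difference. The counts above 0 came without control13, or without control12 for Ind_B against control (3) and any difference (3). Over all genes, Ind_B against control gave 9 calls, but 19 with upper-quartile factors, 302 with DESeq2, 214 with limma-voom, 1 with its 6 libraries and 0 to 332 without 1 library. Ind_Z against control gave 131, but 447 with DESeq2, 2131 with limma-voom, 59 with its 6 libraries and 16 to 1213 without 1 library. Ind_Z against Ind_B gave 26, but 14 at a mean count of at least 50, 631 with DESeq2, 1501 with limma-voom, 1251 with its 6 libraries and 0 to 1453 without 1 library. Any difference gave 123, but 911 with DESeq2, 2294 with limma-voom and 0 to 1467 without 1 library. The cause was not tested.

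No sign was seen that the replicate numbers of Ind_B and Ind_Z pair the libraries. Deviations of same-numbered libraries correlated at −0.02, −0.24 and −0.44, and none of the libraries correlated best with its own number. With 3 libraries per group this cannot settle whether they were paired. A replicate block on the 6 antifoam libraries called 572 genes and 4 members.

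None of the log2 changes that reversed was called, and their values after the reversal were small. With all libraries they were not all small: PGM2 was at −0.40, UGP1 at −0.28 and GSY2 at −0.23 for Ind_Z against control. With upper-quartile factors PGM1 turned to 0.030 for Ind_B against control and GLG1 to −0.042 for Ind_Z against Ind_B. With limma-voom PGM1 turned to 0.080 for Ind_B against control, and GSY2 to 0.10 and UGP1 to 0.081 for Ind_Z against control. Without 1 library, Ind_B against control ranged from −0.22 to 0.0085 for GSY1 and from −0.10 to 0.065 for PGM1. Ind_Z against control ranged from −0.0036 to 0.24 for GSY1, −0.43 to 0.16 for GSY2, −0.051 to 0.25 for GDB1, −0.60 to 0.069 for PGM2 and −0.47 to 0.15 for UGP1. Ind_Z against Ind_B ranged from −0.084 to 0.24 for GLG1. The ratio of GSY2 to GSY1 differed between Ind_B and control by −1.26 to −0.81 and passed except without control13. That of GPH1 to GSY2 differed by −0.74 to −0.37 and passed without control1. A pseudocount of 5 changed no call on the ratios.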
